A study of Mus musculus with 6 samples.

Results

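Caspases and gasdermin D were followed across Lewis lung carcinoma tumors of mice. The 8 genes were Casp1, Casp4, Casp12, Gsdmd, Casp8, Casp9, Casp2 and Casp6, taken by symbol from the 21899 genes of the expression table. LLC-luc, a luciferase-labeled mouse lung carcinoma line, was grown under the skin of male C57BL/6 mice of 18 to 20 g. The Laser group received light only, with saline in place of a photosensitizer per the methods. The PC-La group received phycocyanin (PC), a light-absorbing algal protein, and SePC-La its selenium-enriched form (Se-PC), each before light. RNA was sequenced from 2 tumor samples per group, 6 in all, called tumors below and given in the order replicate 1, replicate 2. All 3 groups were irradiated, and no tumor without light was among them. The labels give light of 620 nm for 10 min, 4 h after an injection repeated every 5 days, while the methods state another wavelength and interval. The labels call the samples lung cancer tissue, and the methods place the tumors of this lung carcinoma line under the skin. The lung epithelial markers Nkx2-1 and Scgb1a1 were at 0 in all 6 samples, and the 4 lung markers together reached 0.526 FPKM at most.

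Caspases are proteases that cut their targets after aspartate and are made as inactive precursors. Casp8 and Casp9 start apoptosis, from death receptors and from mitochondria respectively, Casp2 responds to DNA damage and centrosome faults, and Casp6 cuts nuclear lamins. Casp1 and Casp4 are inflammatory caspases, which cut gasdermin D so that it forms pores in the cell membrane, a lytic death called pyroptosis. In the mouse, Casp4 encodes the protein long named caspase-11, a sensor of bacterial lipopolysaccharide, and Casp12 encodes a relative of Casp1 associated with the endoplasmic reticulum. The values below are RNA levels, which do not report cleavage or activity of these proteins.

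The 3 inflammatory caspase genes lie side by side on chromosome 9 in GENCODE M21 (genome build GRCm38). Casp1 runs from 5298517 to 5307265, Casp4 from 5308828 to 5336783 and Casp12 from 5345430 to 5373032, all on the plus strand. Casp1 and Casp4 are 1562 bases apart, and Casp4 and Casp12 are 8646 bases apart. Gsdmd lies on chromosome 15 from 75862327 to 75867408. Casp8 lies on chromosome 1 from 58795374 to 58847503, Casp9 on chromosome 4 from 141793612 to 141815976, Casp2 on chromosome 6 from 42264985 to 42282508 and Casp6 on chromosome 3 from 129901425 to 129914103. The end of Casp9 overlaps Cela2a and Ctrc on the other strand, and both of those were at 0 in 5 of the 6 samples and below 0.1 FPKM in the sixth.

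The bases just before the starts of the 3 neighbors are shown because the neighbors ranked the tumors in different orders, and those of Casp6 because it was the single member past an unadjusted p. Sequences are from RefSeq (GRCm38.p6), which had entries for 7 of the 8 genes, and end before the first base that RefSeq or GENCODE M21 assigns to the gene. Capitals mark a match, on either strand, to GAAA and GAAA with any 2 bases between (core of the interferon-stimulated response element), TTCNNNGAA (gamma-activated site), GGGA and TTCC with any 2 bases between (a kappa B site), TGACTCA (AP-1 site) or GGGA, any base, TT, any base and CC, another kappa B spelling added after the Casp4 sequence was seen.
Casp1, chr9:5298267-5298516, plus strand: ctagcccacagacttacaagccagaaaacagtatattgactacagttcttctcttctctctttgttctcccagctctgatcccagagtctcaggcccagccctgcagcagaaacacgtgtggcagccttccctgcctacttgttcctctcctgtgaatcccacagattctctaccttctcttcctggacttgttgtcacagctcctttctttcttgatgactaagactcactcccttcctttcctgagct
Casp4, chr9:5308599-5308827, plus strand: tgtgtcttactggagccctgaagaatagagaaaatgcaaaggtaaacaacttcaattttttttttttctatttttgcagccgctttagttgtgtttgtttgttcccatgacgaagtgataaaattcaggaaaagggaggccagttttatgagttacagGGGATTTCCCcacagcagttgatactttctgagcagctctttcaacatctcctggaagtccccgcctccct
Casp12, chr9:5345226-5345429, plus strand: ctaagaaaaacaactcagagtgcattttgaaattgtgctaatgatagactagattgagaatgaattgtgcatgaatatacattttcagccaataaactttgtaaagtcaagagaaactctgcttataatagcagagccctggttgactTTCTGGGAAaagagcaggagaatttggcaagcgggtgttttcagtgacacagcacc
Casp6, chr3:129901165-129901414, plus strand: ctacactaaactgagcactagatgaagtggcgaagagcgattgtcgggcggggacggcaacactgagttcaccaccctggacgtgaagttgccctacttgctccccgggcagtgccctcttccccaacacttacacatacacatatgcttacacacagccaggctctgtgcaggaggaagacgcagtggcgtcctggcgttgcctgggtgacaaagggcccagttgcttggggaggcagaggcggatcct
The printed Casp12 bases held 1 gamma-activated site, letters that 7.02% of the 32851 RefSeq promoters hold in the 250 bases before the start. The Casp4 bases held the added kappa B spelling, present in 0.98% of promoters. None of the 5 spellings occurred in the Casp1 or Casp6 bases, and the other 3 occurred in 2.98% (interferon-stimulated response element), 1.21% (the first kappa B spelling) and 4.46% (AP-1) of promoters. A match describes letters and shows no binding.

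**Figure D1:**
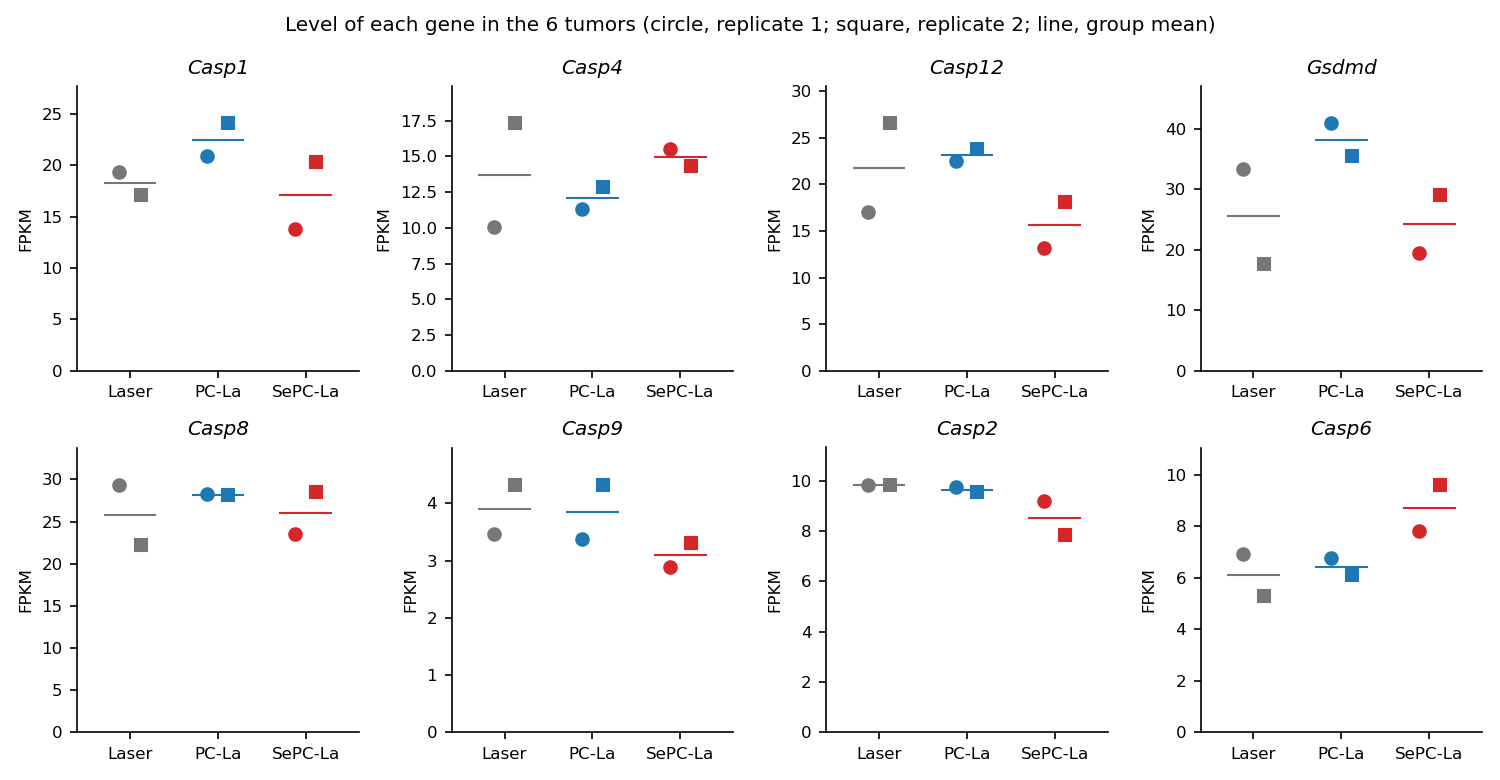
FPKM of each of the 8 genes (y axis) in the 6 tumors, grouped as Laser, PC-La and SePC-La (x axis). Circles are replicate 1, squares replicate 2 and lines group means. Casp6 was higher in both SePC-La tumors than in the other 4, while the Laser tumors spanned 17.7 to 33.3 for Gsdmd and 10 to 17.3 for Casp4.

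All 8 genes were expressed in every tumor, with 217 to 1801 reads per gene and sample. Levels are in FPKM, fragments scaled to exon length and library size, so a ranking of genes depends on the lengths used. Averaged over the 6 samples, Gsdmd stood highest at 29.3 FPKM, followed by Casp8 at 26.7, Casp12 at 20.2, Casp1 at 19.3, Casp4 at 13.6, Casp2 at 9.33, Casp6 at 7.08 and Casp9 at 3.62. The 6 values of each gene overlapped with those of the next gene in this order, except between Casp4 and Casp2 and between Casp6 and Casp9. The 4 genes of the pyroptosis pathway and its gene cluster stood among the 5 highest. Casp2, Casp6 and Casp9, the lowest, had the longest exon lengths, at 7057, 5584 and 5197 bases, against 1497 for Casp1. Before scaling, Casp2 had 936 to 1223 reads per sample and Casp1 299 to 539.

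The tumors of a group were not equally alike. Across the 10853 tested genes, log2 values correlated at 0.946 between the Laser tumors, 0.992 between the PC-La tumors and 0.972 between the SePC-La tumors, and the recovered depth ran from 14447792 to 17649489 reads. The skeletal muscle markers summed to 14.7 and 108 FPKM in the Laser tumors and to 0.09 to 3.67 in the other 4. T cell markers summed to 2.53 to 8.37 FPKM and proliferation markers to 157 to 190 over the 6 tumors, and the B cell and keratinocyte lists had no gene past the filter.

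To determine whether the photosensitizers changed these genes, the groups were compared by limma after adding 1 to each FPKM and taking log2, which shrinks the changes of weakly expressed genes, in a fit of 10853 genes that all 8 passed by their mean over the 6 samples. The criterion of the study was an absolute log2 fold change over 1 with an unadjusted p under 0.05. None of the 8 genes met it in any comparison, where the share of all tested genes that did was 1.29% between PC-La and Laser, 0.682% between SePC-La and Laser, and 2.98% between the photosensitizer groups. At an unadjusted p under 0.05 and any fold change, 0, 1 and 0 of the 8 genes passed, beside 5.78%, 12.1% and 24.3% of all tested genes. For PC-La and Laser, these were 3.38% higher and 2.4% lower in PC-La. The limma voom method on recovered reads gave the same counts of the 8 genes by both rules. After Benjamini-Hochberg adjustment over all tested genes, limma gave no gene an adjusted p under 0.05, among the 8 or elsewhere. The labels do not say whether the samples of a group came from separate mice, so the p-values measure only the spread between these samples.

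Casp6, which encodes an executioner caspase, was the single member that passed an unadjusted p, with higher levels in SePC-La than in Laser. A count of 1 in 8 members was near the 12.1% of all tested genes that passed in that comparison. Its level was 6.93 and 5.29 FPKM for the Laser tumors, 6.76 and 6.09 for the PC-La tumors, 7.82 and 9.61 for the SePC-La tumors. Both SePC-La tumors lay above the other 4, and Laser and PC-La overlapped. The group means were 6.11 ± 1.16, 6.43 ± 0.474 and 8.72 ± 1.27 FPKM (SD, n = 2 each), so that SePC-La stood at 1.43 times Laser and PC-La at 1.05 times. Relative to Laser, SePC-La differed by 0.45 on the log2 scale (standard error, SE, 0.17, limma unadjusted p = 0.0363 and adjusted p = 0.39), with a 95% interval from 0.04 to 0.87. It was 0.29 without Laser replicate 2 and 0.32 without SePC-La replicate 2, and neither passed an unadjusted p. Against PC-La it was 0.38 (SE 0.17, limma adjusted p = 0.23), and 0.25 without SePC-La replicate 2. PC-La differed from Laser by 0.07, which was -0.10 without Laser replicate 2.

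The summed level of the 8 neutrophil markers ranked the 6 tumors in the same order as Casp6. It was 152 and 39.9 FPKM for the Laser tumors, 146 and 78.8 for the PC-La tumors, 338 and 441 for the SePC-La tumors, with no marker at 0 in all samples. At the criterion, 3 of the 6 tested neutrophil markers exceeded Laser in SePC-La, namely S100a8, S100a9 and Retnlg, and 0 were lower, beside 0.544% and 0.138% of all tested genes. In PC-La 1 was below Laser and 0 above, beside 0.424% and 0.866%. Of 80 pairs of a member and a marker list, 2 had the same order in all 6 samples, and these were picked after all pairs were seen. S100a9 made up 35.4% to 68.8% of the neutrophil sum, and without it 4 of the 6 tumors kept the rank they had for Casp6. The other 7 markers summed to 47.4 and 25.8 FPKM for the Laser tumors, 49.5 and 26.3 for the PC-La tumors, 111 and 141 for the SePC-La tumors, still highest in SePC-La. The part of neutrophil number in the level of Casp6 was not tested. In bulk tumors, fewer cells of a type and less RNA per cell cannot be told apart.

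The genes whose log2 levels were most like those of Casp6 among 7483 genes averaging 5 FPKM or more were Rps13, Cxcl1 and Pfn1. Pearson's r over the 6 samples was 0.984, 0.981 and 0.981, and 28 genes were above 0.95. Rps13 encodes a ribosomal protein, Cxcl1 a chemokine that attracts neutrophils and Pfn1 the actin-binding protein profilin. Cxcl1 had 55.6 and 17.4 FPKM for the Laser tumors, 35 and 29.1 for the PC-La tumors, 80.4 and 131 for the SePC-La tumors.

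**Figure D2:**
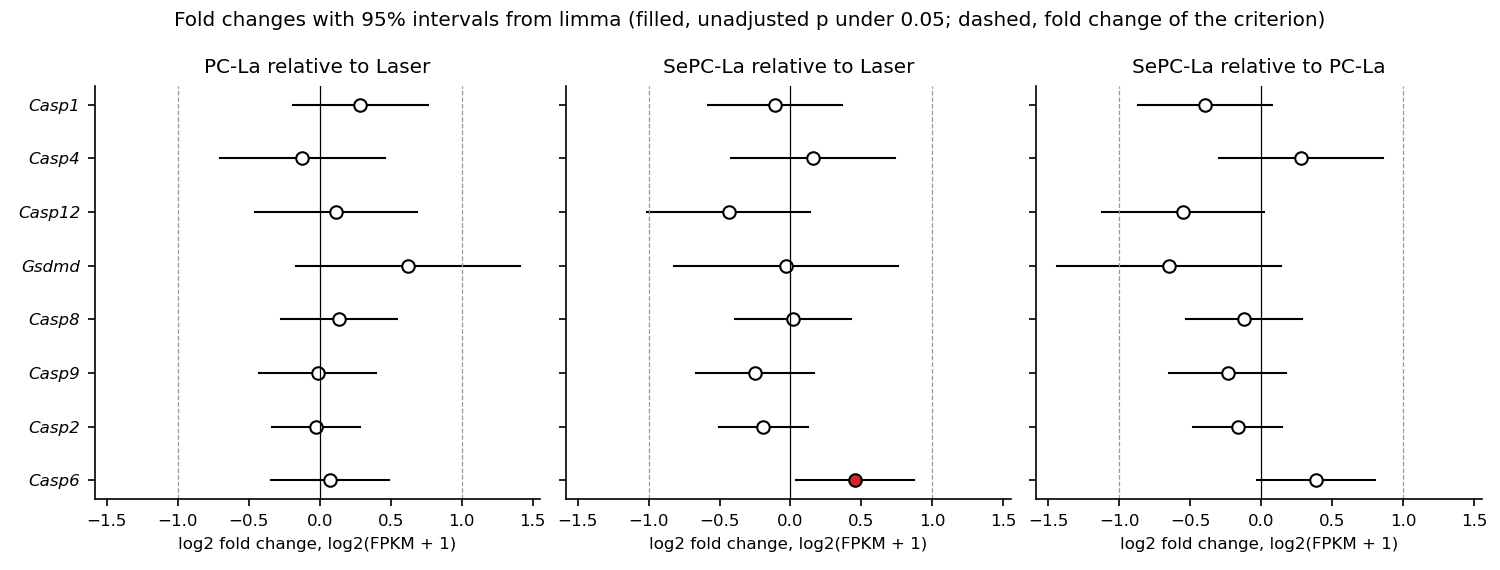
log2 fold change of each gene on log2(FPKM + 1) (x axis) in the 3 comparisons, with 95% intervals from limma. All intervals but that of Casp6 in SePC-La relative to Laser, from 0.04 to 0.87, include 0.

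Gsdmd, the pore-forming gene of pyroptosis, had its highest levels in PC-La. Its level was 33.3 and 17.7 FPKM for the Laser tumors, 40.9 and 35.4 for the PC-La tumors, 19.5 and 29.1 for the SePC-La tumors. Both PC-La tumors lay above the other 4, while Laser and SePC-La overlapped. The means were 25.5 ± 11, 38.2 ± 3.89 and 24.3 ± 6.79 FPKM (SD, n = 2 each). PC-La differed from Laser by 0.62 on the log2 scale (SE 0.32, limma adjusted p = 0.753), with an interval from -0.16 to 1.41. Without Laser replicate 1 this was 1.06, and without Laser replicate 2 it was 0.19. SePC-La differed from PC-La by -0.65 (SE 0.32, limma adjusted p = 0.261) with an interval from -1.44 to 0.14, and from Laser by -0.03. The value against PC-La was -0.38 without SePC-La replicate 1 and -0.93 without SePC-La replicate 2. The value against Laser was 0.41 without Laser replicate 1 and 0.25 without SePC-La replicate 1. The order of the tumors was close to that of the summed fibroblast markers, which were 526 and 68.9 FPKM for the Laser tumors, 819 and 693 for the PC-La tumors, 44.5 and 235 for the SePC-La tumors. Of the 5 fibroblast markers, 0 passed an unadjusted p in any comparison by limma, and none was at 0 in all samples. Lum made up 42.5% to 56.6% of the sum, and 4 of the 6 tumors had the same rank as for Gsdmd both with and without it. Most of the remainder was Dcn, at 184.3 of 228.4 FPKM in Laser replicate 1 and 364.9 of 403.7 in PC-La replicate 1. The markers did not share 1 order. Dcn, Lum and Pdgfra were highest in PC-La replicate 1, as Gsdmd was. Col1a1 and Col1a2 were highest in SePC-La replicate 2, at 23.17 and 10.08 FPKM. The fibroblast list was picked after all 10 marker lists were seen. Spearman's rank correlation with Gsdmd was highest for fibroblast (0.94), interferon response (0.83) and T cell markers (0.77). It was lowest for proliferation markers (-0.89). The part of fibroblasts, or of any other of these lists, in the level of Gsdmd was not tested.

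Casp1, the caspase that inflammasomes switch on, also had its highest levels in PC-La. It had 19.3 and 17.1 FPKM for the Laser tumors, 20.9 and 24.1 for the PC-La tumors, 13.8 and 20.3 for the SePC-La tumors. Both PC-La tumors were above the other 4, and the SePC-La tumors lay on either side of the Laser tumors. PC-La stood at 1.23 times Laser and SePC-La at 0.938 times. Log2 fold changes were 0.29 for PC-La against Laser (SE 0.20, limma adjusted p = 0.76), -0.11 for SePC-La against Laser (limma adjusted p = 0.828) and -0.40 between the photosensitizer groups (limma adjusted p = 0.258). The interval for SePC-La against Laser ran from -0.58 to 0.36, and the value was 0.15 without SePC-La replicate 1. The value against PC-La was -0.13 without SePC-La replicate 1, and -0.66 without SePC-La replicate 2.

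Casp4, next to Casp1 on the chromosome, did not share its order. Its level was 10 and 17.3 FPKM for the Laser tumors, 11.3 and 12.9 for the PC-La tumors, 15.5 and 14.3 for the SePC-La tumors. The Laser tumors held both the lowest and the highest value, and both SePC-La tumors were above both PC-La tumors. SePC-La differed from PC-La by 0.28 (SE 0.24, limma adjusted p = 0.476). Against Laser, SePC-La differed by 0.16 and PC-La by -0.12. These were -0.20 and -0.49 without Laser replicate 1, and 0.53 and 0.24 without Laser replicate 2. The -0.49 in PC-La and the 0.53 in SePC-La were opposite in sign, each from a fit with a lone Laser tumor.

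Casp12 was lowest in SePC-La. It had 17 and 26.6 FPKM for the Laser tumors, 22.5 and 23.8 for the PC-La tumors, 13.2 and 18.1 for the SePC-La tumors. Both SePC-La tumors were below both PC-La tumors, and Laser overlapped with both groups. SePC-La stood at 0.718 times Laser and 0.677 times PC-La. Set against PC-La, SePC-La differed by -0.55 on the log2 scale (SE 0.24, limma adjusted p = 0.217) with an interval from -1.12 to 0.02, and against Laser it was -0.44 (limma adjusted p = 0.486). Without Laser replicate 1 the value against Laser was -0.74, and without Laser replicate 2 it was -0.13. The value against PC-La was -0.33 without SePC-La replicate 1, and -0.76 without SePC-La replicate 2. The value against Laser was -0.22 without SePC-La replicate 1. PC-La differed from Laser by 0.11, which was -0.19 without Laser replicate 1.

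The 10 macrophage markers, summed, ranked the 6 tumors in the same order as Casp12, but that order rested on Lyz2, which made up 43.5% to 66.5% of the sum. Together the 10 reached 1343 and 2119 FPKM for the Laser tumors, 1589 and 1733 for the PC-La tumors, 984 and 1472 for the SePC-La tumors, with none at 0 in all samples. Without Lyz2 the other 9 summed to 662 and 710 FPKM for the Laser tumors, 897 and 955 for the PC-La tumors, 385 and 726 for the SePC-La tumors. Only 2 of the 6 tumors then had the same rank as for Casp12, and Laser replicate 2, the highest for Casp12, stood below both PC-La tumors and SePC-La replicate 2. Between SePC-La and PC-La, 5 of the 10 were lower in SePC-La at an unadjusted p under 0.05 and 0 higher. Among all tested genes, 14.4% were lower and 9.91% higher. Of the 5, 2 met the criterion (C1qa and C1qc), beside 1.8% of all tested genes lower and 1.18% higher. The part of macrophages in the level of Casp12 was not tested.

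**Figure D3:**
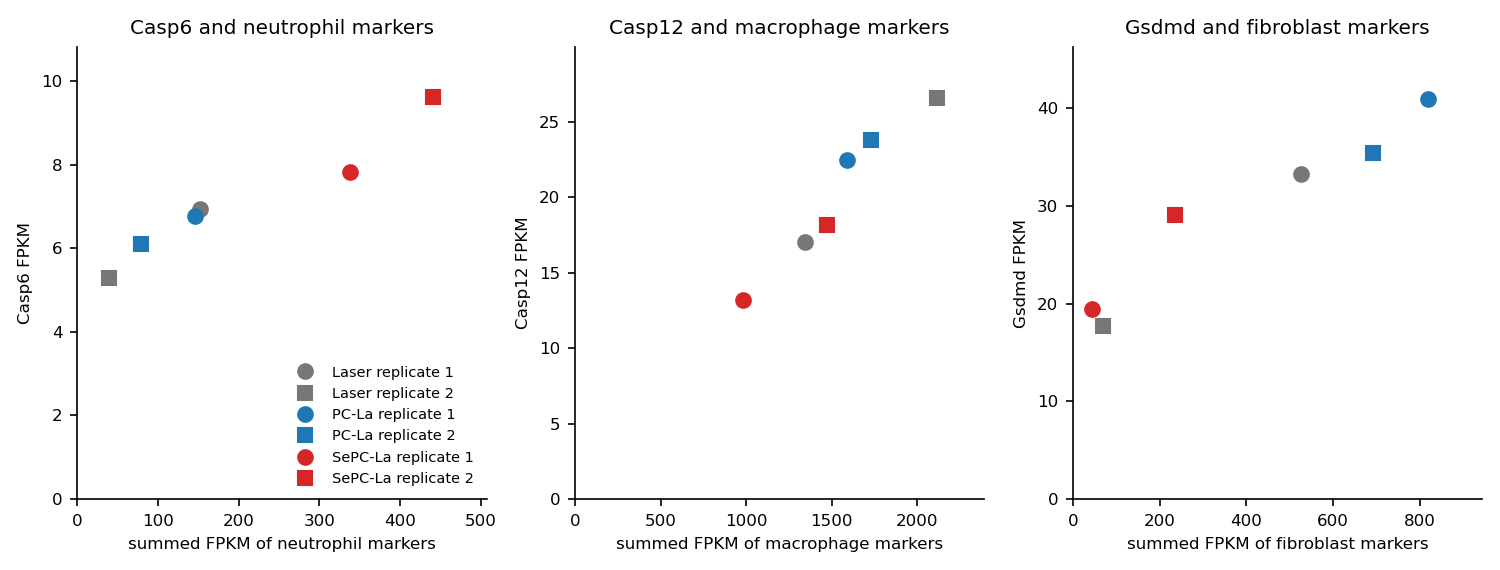
FPKM of Casp6, Casp12 and Gsdmd (y axes) against the summed FPKM of neutrophil, macrophage and fibroblast markers (x axes) in the 6 tumors. Colors are groups, circles are replicate 1 and squares replicate 2. With all markers summed, 6, 6 and 4 of the 6 tumors had the same rank on both axes for Casp6, Casp12 and Gsdmd, and 4, 2 and 4 without the most abundant marker of each list (S100a9, Lyz2 and Lum).

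The initiator caspases of apoptosis passed the test in no comparison. Casp8 had 29.4 and 22.3 FPKM for the Laser tumors, 28.3 and 28.1 for the PC-La tumors, 23.5 and 28.5 for the SePC-La tumors, and each pair of groups overlapped. Against Laser, PC-La differed by 0.14 and SePC-La by 0.01 on the log2 scale (limma adjusted p = 0.827 and 0.979), with intervals from -0.27 to 0.54 and from -0.39 to 0.42. Without Laser replicate 2 these were -0.06 and -0.18. Casp9 had 3.46 and 4.33 FPKM for the Laser tumors, 3.39 and 4.32 for the PC-La tumors, 2.89 and 3.32 for the SePC-La tumors. Both SePC-La tumors lay below the other 4, at 0.797 times the Laser mean, and Laser and PC-La overlapped. Against Laser, SePC-La differed by -0.25 (SE 0.17, limma adjusted p = 0.56) and PC-La by -0.01, which was 0.11 without Laser replicate 2.

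Casp2, the caspase of the PIDDosome, had nearly equal levels within Laser and within PC-La. Its level was 9.84 and 9.82 FPKM for the Laser tumors, 9.73 and 9.55 for the PC-La tumors, 9.18 and 7.84 for the SePC-La tumors. Both SePC-La tumors were below the other 4, and the Laser tumors were above both PC-La tumors by a narrow margin. SePC-La differed by -0.19 from Laser (SE 0.13, limma adjusted p = 0.559), with an interval from -0.50 to 0.12, and by -0.17 from PC-La (limma adjusted p = 0.444).

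Counted together, the groups did not overlap for 3 of the 8 genes when PC-La was set against Laser, for 3 when SePC-La was, and for 7 between the photosensitizer groups. Among all tested genes the shares were 42%, 40.6% and 65.5%. PC-La was higher than Laser for 2 of its 3 and lower for 1 (20.4% and 21.6% of all tested genes), and SePC-La was higher for 1 and lower for 2 (15% and 25.6%). Of the 7, Casp4 and Casp6 were higher in SePC-La and the other 5 lower, where 26% and 39.5% of all tested genes were apart in these directions. The log2 fold change was above 0 for 5, 3 and 2 of the 8 genes, and for 49.9%, 40.2% and 41.5% of all tested genes. The median log2 fold change of the 8 genes was 0.09, -0.07 and -0.20 in the 3 comparisons, beside -0.00062, -0.06 and -0.07 over all tested genes. Each pair of comparisons shares the tumors of 1 group.

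Genes that act with these caspases were taken from pathway lists. Those named below that did not meet the criterion were chosen after their values were seen. Inflammasome genes act upstream of Casp1. Of the 10 listed, 7 were tested, and Nlrc4, Nlrp1b and the adaptor Pycard did not pass the filter. Naip2, a sensor of bacterial secretion systems, was lower in SePC-La than in PC-La at the criterion, as were 1.8% of all tested genes (1.18% were higher). Naip2 had 6.47 and 5.54 FPKM for the Laser tumors, 10.6 and 10.7 for the PC-La tumors, 3.5 and 6.32 for the SePC-La tumors. Its log2 fold change between SePC-La and PC-La was -1.02 (SE 0.24, limma adjusted p = 0.126), and reads of Naip2 and its near copies could have been split by the counting. Nlrp3, a sensor of membrane disturbance, had 3.86 and 2.7 FPKM for the Laser tumors, 3.47 and 3.1 for the PC-La tumors, 5.58 and 4.46 for the SePC-La tumors, a log2 fold change of 0.50 against Laser (limma unadjusted p = 0.0351 and adjusted p = 0.388). Over the list, 0, 0 and 1 genes met the criterion in the 3 comparisons, and the median was 0.05, -0.28 and -0.40.

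Of 9 genes for the cargo of Casp1 and for membrane rupture, 6 were tested and 0 met the criterion in any comparison by limma. Ninj1, which ruptures the membrane late in lytic death, was the single gene of this list at an unadjusted p under 0.05 in any comparison. It was 0.62 higher in SePC-La than in PC-La on the log2 scale (limma adjusted p = 0.134). At an unadjusted p under 0.05, 9.91% of all tested genes were higher and 14.4% lower in that comparison. Ninj1 had 35.8 and 45.5 FPKM for the Laser tumors, 31.4 and 34 for the PC-La tumors, 45.9 and 56.1 for the SePC-La tumors. Il1b encodes a cargo of Casp1. It had 68.2 and 6.36 FPKM for the Laser tumors, 51.5 and 69.55 for the PC-La tumors, 106.9 and 102 for the SePC-La tumors. SePC-La differed from Laser by 2.22 on the log2 scale (SE 1.06, limma unadjusted p = 0.0928 and adjusted p = 0.461). Without overlap, 2 of the 6 tested genes were higher in SePC-La than in Laser, including Il1b, and 2 lower. Among all tested genes the shares were 15% and 25.6%. Gsdmc and Gsdma, other gasdermins, were listed at 0 in all samples. The median log2 fold change of the list was -0.20, 0.01 and 0.19 in the 3 comparisons.

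The apoptosome joins Casp9 to the adaptor Apaf1, and inhibitor of apoptosis proteins such as Xiap block it. Of the 8 tested genes of this list, 0 met the criterion in any comparison, and in SePC-La against Laser 4 were lower and 2 higher at an unadjusted p under 0.05, beside 7.24% and 4.9% of all tested genes. Apaf1, Xiap, Birc2 and Birc6 were the lower genes, and Cycs, which encodes cytochrome c, and Birc5 the higher ones. Apaf1 had 9.22 and 9.51 FPKM for the Laser tumors, 10.2 and 10.7 for the PC-La tumors, 6.92 and 7.24 for the SePC-La tumors, a log2 fold change of -0.36 against Laser (limma adjusted p = 0.382). Xiap had 13 and 12.5 FPKM for the Laser tumors, 12 and 12.9 for the PC-La tumors, 8.77 and 9.68 for the SePC-La tumors, or -0.43 (limma adjusted p = 0.376). Both SePC-La tumors lay below the other 4 for Apaf1 and Xiap, as they did for Casp9. They lay above the other 4 for Cycs and Birc5. Against Laser, 4 of the 8 tested genes were lower without overlap in SePC-La and 2 higher, beside 25.6% and 15% of all tested genes. The list median was 0.04, -0.16 and -0.26 in the 3 comparisons.

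In the death-inducing complex of Casp8, 0 of 9 tested genes met the criterion in any comparison by limma. Between SePC-La and PC-La, Cflar, the decoy that restrains Casp8, was 0.49 lower on the log2 scale (limma adjusted p = 0.198). Traf2 was 0.31 higher in the same comparison (limma adjusted p = 0.197). These were the only 2 genes of the list at an unadjusted p under 0.05 in any comparison. Among all tested genes, 14.4% were lower and 9.91% higher between these groups at that p. Of the 3 necroptosis genes, Zbp1, a sensor of unusual nucleic acids, exceeded Laser in PC-La at the criterion. Zbp1 had 16.9 and 9.22 FPKM for the Laser tumors, 25.8 and 31.8 for the PC-La tumors, 17.4 and 18.1 for the SePC-La tumors, a log2 fold change of 1.13 (SE 0.27, limma adjusted p = 0.642). Ripk3, the kinase of necroptosis, had 4.61 and 3.36 FPKM for the Laser tumors, 4.24 and 6.3 for the PC-La tumors, 6.7 and 7.05 for the SePC-La tumors, and differed by 0.67 between SePC-La and Laser (limma unadjusted p = 0.0163 and adjusted p = 0.376). Medians were 0.12, -0.03 and -0.20 for the death-inducing complex and 0.32, 0.47 and 0.20 for necroptosis.

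Pidd1, which assembles the complex that switches on Casp2, was lower in SePC-La than in PC-La by 0.61 on the log2 scale (limma unadjusted p = 0.00819 and adjusted p = 0.134), and Cradd, the other gene of that list, passed in no comparison. Among 7 genes for targets of Casp6 and other executioners or for partners of those targets, 0 met the criterion by limma. Lmnb2 alone of these passed an unadjusted p, higher in SePC-La than in PC-La by 0.53 (limma adjusted p = 0.136). Between SePC-La and PC-La, 14.4% of all tested genes were lower and 9.91% higher at an unadjusted p under 0.05. Of 7 endoplasmic reticulum stress genes, 0 met the criterion, and in SePC-La against Laser Ddit3 and Atf4 were higher and Eif2ak3 lower at an unadjusted p under 0.05, beside 4.9% and 7.24% of all tested genes. In SePC-La against PC-La, Ddit3 and Atf4 were again higher, and Eif2ak3 and Xbp1 lower, beside 9.91% and 14.4%. Atf4 had 114 and 112 FPKM for the Laser tumors, 90.2 and 122 for the PC-La tumors, 200.5 and 169.5 for the SePC-La tumors. Both SePC-La tumors were above the other 4. Against Laser, 2 of the 7 genes were higher without overlap in SePC-La and 2 lower, beside 15% and 25.6% of all tested genes. Medians were 0.10, -0.26 and -0.36 for the PIDDosome pair, -0.02, 0.10 and 0.23 for the executioner list and 0.06, -0.18 and -0.03 for the stress genes.

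**Figure D4:**
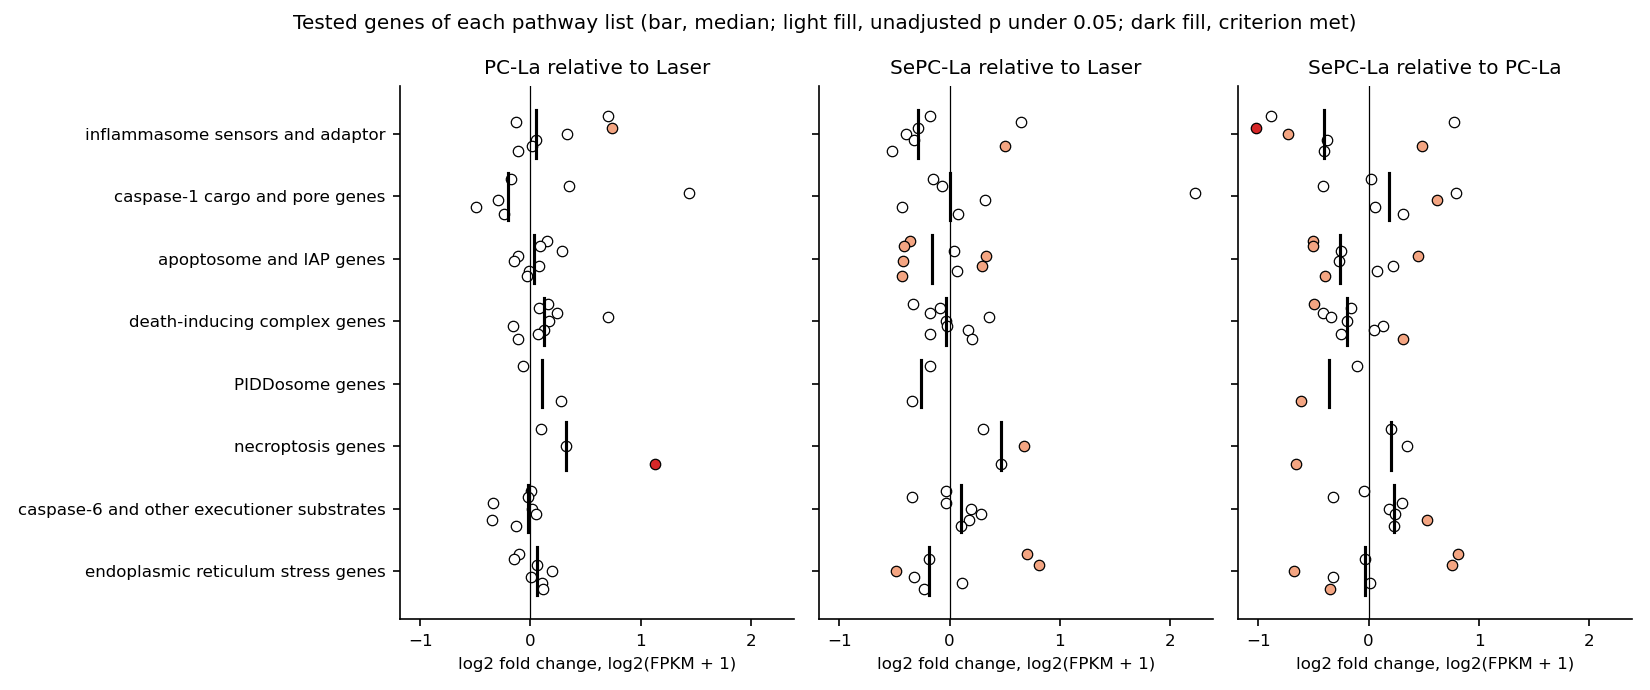
log2 fold changes on log2(FPKM + 1) (x axis) of the tested genes of 8 pathway lists (y axis) in the 3 comparisons. Points are genes, bars are medians, light fill marks an unadjusted p under 0.05 and dark fill the criterion, which 2 genes met, Zbp1 in PC-La relative to Laser and Naip2 in SePC-La relative to PC-La.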

How the data were processed

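RNA of 6 tumors was sequenced, and the authors deposited 1 table of values per gene and sample. Per the labels, the processing notes name HISAT2 2.0.5, HTSeq 0.9.1, DESeq 1.30.0 and the build mm9. The table does not name its unit. The deposited values were taken as FPKM, because multiplying them by GENCODE M21 exon lengths (GRCm38) gave whole reads, within 0.01, for 97.7% to 97.9% of the values above 0. The lengths therefore belong to another build than the one in the notes. The recovered totals of 14447792 to 17649489 reads set the counting precision.

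Testing was limited to genes that averaged 1 FPKM or more. The log2(FPKM + 1) values were fitted by limma (version 3.58.1, R 4.3.3), with group means over all 6 samples, a trend and robust estimation. Tables were made with Python 3.11.15, pandas 2.3.3 and NumPy 2.4.6, and plots with matplotlib 3.10.9. The fit was tested on simulated data. Alternatives covered pseudocount, filter, scaling, trend, robust estimation, samples fitted, voom on recovered reads, a replicate block and leaving out each sample. The correlation between same-numbered deviations was 0.0862, -0.428 and -0.177 in the 3 comparisons, so the numbers were not taken to pair the samples.

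The 8 genes and all lists were chosen with earlier results of these data known. The naming rule took the 8 genes, up to 3 genes per list that met the criterion by smallest p, and the 3 genes most correlated with any member past an unadjusted p. All other genes named were chosen after their values were seen. Leaving the most abundant marker out of a sum was also chosen after seeing the data. Protein sequences were not used here. One further list of genes, planned with the others, is not reported here.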

Additional observations from a re-analysis of the deposited data

How the results depend on the processing

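Each group mean rests on 2 samples. Casp6 in SePC-La against Laser ranged from 0.45 to 0.53 over the alternatives that kept all its samples, with adjusted p from 0.285 to 0.735 by limma, and passed an unadjusted p in 9 of 11. It did not pass with only the 4 samples compared (0 of the 8 genes, and 700 of all genes). No gene of the 8 met the criterion unless a sample was left out. The direction of Gsdmd in SePC-La against Laser was 0.05 with median-ratio scaling, and that of Casp8 was -0.0016 with quantile normalization. The median of all genes moved by at most 0.0907 under another scaling. At an unadjusted p between SePC-La and PC-La, 1 of the 8 genes (Casp6) passed with either scaling and 3 (Casp12, Gsdmd and Casp6) with only the 4 samples compared.

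Over all genes, a minimum of 5 FPKM gave 68, 46 and 186 genes at the criterion, against 140, 74 and 323. At an unadjusted p for PC-La and Laser it gave 403 against 627, where no filter gave 975. The 627 were 5.78% of 10853 tested genes. Fewer genes were tested with the minimum of 5 FPKM and more with no filter. Counts under different filters therefore do not show by themselves whether the share of genes passing changed. Voom gave 221 and 133 genes at the criterion in the comparisons of PC-La and SePC-La with Laser. A pseudocount of 0.1 gave 129 when SePC-La was set against Laser and 488 between the photosensitizer groups. The cause of the changes with voom and with the pseudocount was not tested. The stricter filter also removed Casp9.

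With the replicate number as a block, Casp6 in SePC-La against Laser had an unadjusted p of 0.0597, Casp12 passed there at 0.049, and 1 of the 8 genes (Casp12) passed between SePC-La and PC-La. The block gave 452, 938 and 2026 genes at an unadjusted p. The crossed pairing, chosen after seeing the data, gave 1122 genes at an unadjusted p for PC-La and Laser, and 1, 1 and 2 of the 8 genes in the 3 comparisons.

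Leaving out each sample in turn, with the lone sample assumed to vary like the other groups, gave 0 to 1, 0 and 0 of the 8 genes at the criterion and 0 to 2 at an unadjusted p in each comparison. Over all genes it gave 71 to 664, 73 to 253 and 169 to 584 at the criterion, and 204 to 2700, 828 to 2121 and 876 to 2548 at an unadjusted p. The log2 fold changes that turned direction ran, for PC-La against Laser, from -0.49 to 0.24 (Casp4), -0.19 to 0.42 (Casp12), -0.057 to 0.33 (Casp8), -0.15 to 0.13 (Casp9) and -0.10 to 0.24 (Casp6). For SePC-La against Laser they ran from -0.37 to 0.15 (Casp1), -0.20 to 0.53 (Casp4), -0.47 to 0.41 (Gsdmd) and -0.18 to 0.21 (Casp8), and for SePC-La against PC-La from -0.25 to 0.012 (Casp8).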

Other observations

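Over the 6 tumors, the log2 levels of Gsdmd and Casp8 correlated at 0.92 (Pearson's r), those of Casp1 and Gsdmd at 0.81, and those of Casp12 and Casp9 at 0.88. Casp4 ran against Gsdmd and Casp8, at -0.85 with each, and Casp2 against Casp6 at -0.86. Among the chromosome 9 neighbors, r was -0.52 for Casp1 and Casp4, 0.59 for Casp1 and Casp12 and 0.10 for Casp4 and Casp12. These pairs share the same 6 libraries and are given as a description.

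Igfbp4, which encodes a secreted binder of insulin-like growth factors, was the gene most like Gsdmd among the 7483 compared, with r = 0.9991, and was named after its values were seen. It had 353.7 and 145.2 FPKM for the Laser tumors, 443.5 and 379 for the PC-La tumors, 163 and 285.9 for the SePC-La tumors. At r above 0.95 there were 232 genes for Gsdmd and 28 for Casp6.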
